A study of Mus musculus with 30 samples.

Results

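FOSL2 and JunB are both subunits of AP-1, and the sites listed for each were compared in 3T3-L1 cells, which are mouse pre-adipocytes that become fat cells under hormone treatment. A site was a 400 bp interval of the mouse build mm9 on chromosomes 1 to 19 or X, and a site was called shared when the identical interval stood in both lists. Of 34724 intervals listed for any of 9 factors, 13089 were listed for FOSL2, JunB or both. They fell into 3277 shared sites, 3007 FOSL2-only sites and 6805 JunB-only sites, and 21635 intervals were listed for neither.

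AP-1 factors are basic leucine zipper (bZIP) proteins, which grip DNA as dimers. FOS proteins such as FOSL2 (also called Fra-2) do not form stable dimers with each other and bind DNA with a JUN partner, of which JunB and cJun are examples, or with some ATF proteins. JUN proteins can pair among themselves as well as with FOS and ATF proteins. AP-1 and the ATF/CREB proteins act early in adipogenesis, when glucocorticoid and cyclic AMP signals reach the confluent pre-adipocyte.

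The study mapped transcription factors by chromatin immunoprecipitation with sequencing (ChIP-seq) shortly after the start of adipogenesis. All 9 libraries used here came from the same cell line, grown past confluence and harvested 4 h after induction with 1 μM dexamethasone, 0.5 mM isobutylmethylxanthine, 1 μg/mL insulin and 10% FCS. Each was made with an antibody against 1 factor: FOSL2 (antibody L-15), JunB (210), cJun (H79), ATF2 (N-96), ATF7 (S-15), KLF4 (H-180), KLF5 (a gift, with no clone given), VDR (C-20) and RXR (ΔN-197). The other 21 labelled samples were not analysed here. Every factor had 1 library and no replicate, and no uninduced library or input was used, so no difference below was tested between conditions. Which protein an antibody caught could not be checked from a list of intervals.

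The lists gave chromosome, start and end only, with no score and no read number, and depth is unknown. A site missing from a list was not listed, which does not show that the factor was absent there. A shared interval was listed in 2 separate immunoprecipitations and need not have held both proteins at the same time or in the same cell. Shares carry exact Clopper-Pearson 95% intervals, and differences of shares, in percentage points, carry Newcombe score 95% intervals. Both cover counting error only, and sites of 1 library are not replicates. As a further description, each difference was computed on each of 20 chromosomes.

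The FOSL2 list held 6284 sites, and 52.1% of them (95% interval 50.9 to 53.4) were also listed for JunB. The JunB list held 10082 sites, of which 32.5% (31.6 to 33.4) were also listed for FOSL2. The common intervals left few near misses between the lists. Only 32 FOSL2-only intervals (1.06%) overlapped a JunB interval by at least 1 bp, and 38 JunB-only intervals (0.558%) overlapped a FOSL2 interval.

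The FOSL2 list was unevenly spread before any comparison. Of its sites, 7.11% lay in 3 dense blocks of chromosome 10 (their intervals spanned chr10:106700788-107883256, chr10:116221159-116799359 and chr10:117229085-118066413), against 1.37% of JunB sites and 2.72% of all intervals. These blocks held 88 shared sites (2.69%), 359 FOSL2-only sites (11.9%) and 50 JunB-only sites (0.735%). ATF7 had the next highest share there with 5.79% of its list, followed by ATF2 with 4.10%. Without the blocks, 3189 shared, 2648 FOSL2-only and 6755 JunB-only sites remained, and 54.6% of FOSL2 sites and 32.1% of JunB sites were shared. Some values without the blocks are given below beside those over all sites.

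cJun had the largest difference between FOSL2-only and JunB-only sites of the 7 lists over all sites, though not in every setting. RXR exceeded it with the JunB list shortened to the FOSL2 length (-56.3 points for RXR and -52.8 for cJun). That cut removed late JunB-only sites and left the FOSL2-only sites as they were. ATF2 exceeded cJun at equal crowding, described below. cJun was listed at 59.1% of shared sites (95% interval 57.4 to 60.8), 2.93% of FOSL2-only sites (2.35 to 3.59) and 44.2% of JunB-only sites (43.0 to 45.4). The cJun list held 17.8% of all intervals. FOSL2-only minus JunB-only was -41.3 percentage points (-42.6 to -39.9), and it was negative on 20 of 20 chromosomes, between -47.6 and -32.8 points.

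Seen from the FOSL2 list, most sites with cJun also had JunB. Of 2026 FOSL2 sites that were also listed for cJun, 1938 were listed for JunB, or 95.7% (94.7 to 96.5). Of the 4258 FOSL2 sites without cJun, 31.4% (30.1 to 32.9) were listed for JunB. The other lists gave lower values: JunB was listed at 63.3% of the FOSL2 sites with ATF2, 64.0% of those with ATF7, 71.4% of those with KLF5, 77.9% of those with KLF4, 79.4% of those with VDR and 80.1% of those with RXR. Among cJun sites without FOSL2, JunB was listed at 72.5% (71.1 to 73.8), 3007 of 4149.

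The reverse did not hold to the same degree. JunB sites with cJun were also listed for FOSL2 in 39.2% of cases (37.8 to 40.6). At cJun sites without JunB, FOSL2 was listed at 88 of 1230, or 7.15% (5.78 to 8.74). cJun was listed at 4945 JunB sites and at 2026 FOSL2 sites in all.

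The pattern was also seen at sites that held the same number of the remaining 6 lists. FOSL2 sites with cJun and with none of ATF2, ATF7, KLF4, KLF5, VDR and RXR were listed for JunB in 83.6% of 128 cases (76.0 to 89.5). FOSL2 sites with none of all 7 lists were listed for JunB in 16.4% (14.6 to 18.3), 251 of 1533. With all 6 remaining lists, the share was 99.2% with cJun and 60.3% without it. For JunB sites the gap was smaller: 39.2% were listed for FOSL2 with cJun and 26.1% (24.9 to 27.3) without it. With all 6 remaining lists the shares were 82.9% (79.7 to 85.8) with cJun and 65.9% (59.2 to 72.2) without it. With 4 remaining lists, the one number at which the order turned, they were 28.8% (26.2 to 31.5) with cJun and 33.0% (29.2 to 37.1) without it.

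**Figure D1:**
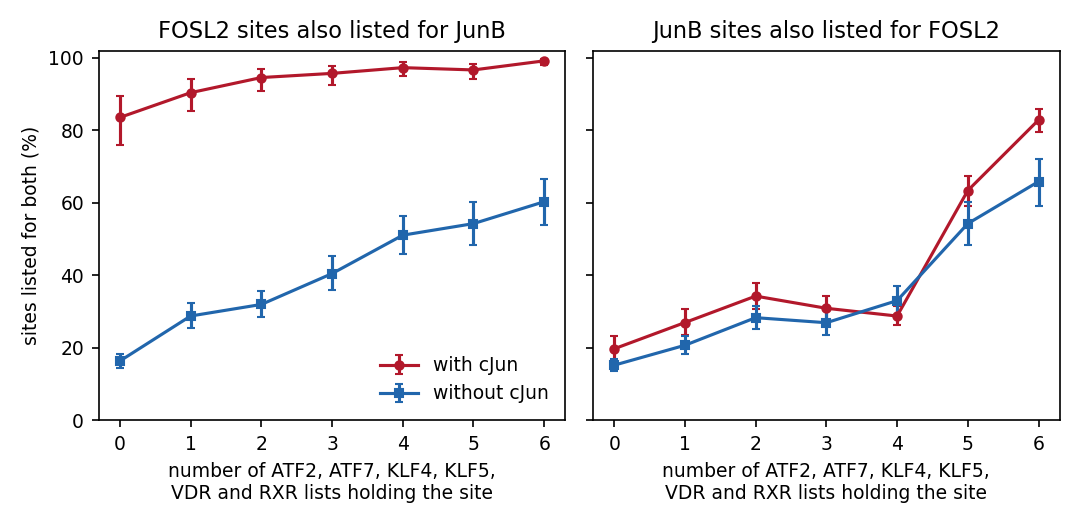
Share of sites listed for both FOSL2 and JunB (y axis, %), among FOSL2 sites on the left and JunB sites on the right, by the number of ATF2, ATF7, KLF4, KLF5, VDR and RXR lists that held the site (x axis). Red circles are sites with cJun, blue squares are sites without it, and bars are exact 95% intervals. On the left the red points run from 83.6% to 99.2% and lie above all blue points, which run from 16.4% to 60.3%; on the right the colours lie close together up to 4 lists, and at 6 lists red stands at 82.9% and blue at 65.9%.

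The 88 FOSL2-only sites with cJun were few, and they carried fewer other factors than the 1938 shared sites with cJun. ATF2 was listed at 55.7% of them (44.7 to 66.3) and at 70.8% of the shared ones. KLF5 was listed at 42.0% (31.6 to 53.0) against 76.9%, and RXR at 31.8% (22.3 to 42.6) against 69.1%. None of the 6 remaining lists held 23.9% (15.4 to 34.1) of these FOSL2-only sites and 5.52% of the shared ones.

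ATF2 and ATF7 showed the opposite lean. They are bZIP proteins that bind cyclic AMP response elements and can pair with JUN proteins. ATF2 was listed at 65.3% of shared sites (63.7 to 67.0), 41.2% of FOSL2-only sites (39.5 to 43.0) and 17.1% of JunB-only sites (16.2 to 18.0), with 33.3% over all intervals. ATF7 was listed at 48.7% of shared sites (47.0 to 50.5), 29.8% of FOSL2-only sites (28.2 to 31.5) and 11.2% of JunB-only sites (10.5 to 12.0), with 21.2% over all intervals. For both, JunB-only sites lay below the level of all intervals and FOSL2-only sites above it.

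FOSL2-only minus JunB-only was 24.2 points for ATF2 (22.2 to 26.1) and 18.6 points for ATF7 (16.8 to 20.4), each positive on 20 of 20 chromosomes. Without the blocks of chromosome 10, where ATF2 and ATF7 sites were also dense, the differences were 23.0 and 16.2 points. Either ATF was listed at 72.3% of shared, 47.3% of FOSL2-only and 21.1% of JunB-only sites. Both ATFs together were listed at 41.8% of shared, 23.8% of FOSL2-only and 7.26% of JunB-only sites.

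The zinc-finger factors KLF4 and KLF5, of the Krüppel-like family, were listed less often at FOSL2-only than at JunB-only sites. KLF5, which takes part in early adipocyte differentiation, was listed at 68.9% of shared sites (67.3 to 70.5), 30.0% of FOSL2-only sites (28.4 to 31.7) and 53.6% of JunB-only sites (52.4 to 54.8). KLF4 was listed at 40.3% of shared (38.6 to 42.0), 12.5% of FOSL2-only (11.3 to 13.7) and 25.2% of JunB-only sites (24.2 to 26.2). Over all intervals the shares were 49.3% for KLF5 and 16.9% for KLF4. FOSL2-only minus JunB-only was -23.5 points for KLF5 (-25.5 to -21.5) and -12.7 points for KLF4 (-14.3 to -11.1). Both differences were much smaller at equal crowding, described below.

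The nuclear receptors were also listed less often at FOSL2-only than at JunB-only sites. VDR binds vitamin D, and RXR (retinoid X receptor) is its partner on DNA. VDR was listed at 54.5% of shared sites (52.8 to 56.2), 15.4% of FOSL2-only sites (14.2 to 16.8) and 46.3% of JunB-only sites (45.1 to 47.5), with 34.0% over all intervals. RXR was listed at 59.0% of shared sites (57.3 to 60.7), 16.0% of FOSL2-only sites (14.7 to 17.4) and 3403 of 6805 JunB-only sites (48.8 to 51.2%), with 34.8% over all intervals. The differences, FOSL2-only minus JunB-only, were -30.9 points for VDR and -34.0 points for RXR. All KLF and receptor differences were negative on 20 of 20 chromosomes, with and without the blocks.

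**Figure D2:**
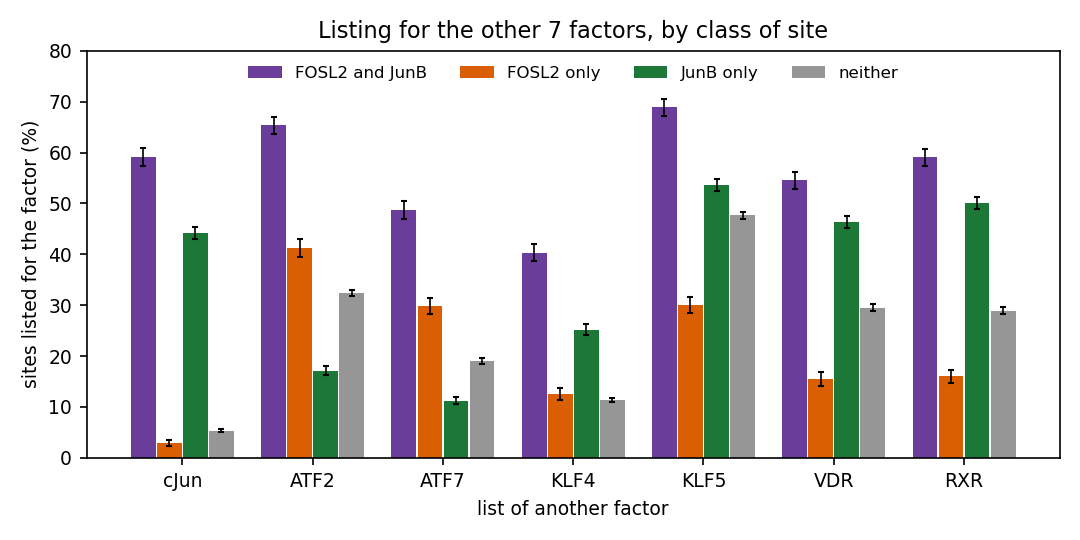
Share of sites listed for each of the other 7 factors (y axis, %), for sites shared by FOSL2 and JunB, FOSL2-only sites, JunB-only sites and intervals listed for neither, with exact 95% intervals. Shared sites have the tallest bar for every factor, and FOSL2-only sites stand above JunB-only sites for ATF2 (41.2% against 17.1%) and ATF7 (29.8% against 11.2%), and below them for cJun (2.93% against 44.2%), KLF4, KLF5, VDR and RXR.

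Every interval listed for neither FOSL2 nor JunB had to stand on at least 1 of the other 7 lists, so its bars are raised by construction and are shown for scale only. The levels over all intervals include these intervals and are raised in part by the same construction. Under the same condition, at least 1 of the other 7 lists, cJun was listed at 5.10% of FOSL2-only sites (4.11 to 6.25), close to its 5.28% at intervals listed for neither (4.98 to 5.58).

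Combinations of families set the classes apart as widely as cJun did. A KLF or a receptor without any ATF was listed at 16.8% of shared sites, 9.41% of FOSL2-only sites and 52.0% of JunB-only sites, and FOSL2-only minus JunB-only was -42.6 points (-44.1 to -41.0). An ATF without any KLF or receptor was listed at 10.6% of shared, 21.0% of FOSL2-only and 3.98% of JunB-only sites, and at 16.4% of FOSL2-only sites without the blocks. There FOSL2-only minus JunB-only was 17.0 points over all sites and 12.4 points without the blocks. For scale, 57.5% of intervals listed for neither FOSL2 nor JunB had a KLF or a receptor without any ATF. An ATF without any KLF or receptor was listed at 27.3% of them. Both shares are raised by construction, since these intervals had to stand on another list. Whether either class had an excess of its combination was not tested. All 3 groups together, an ATF, a KLF and a receptor, were listed at 48.5% of shared sites, 14.3% of FOSL2-only sites and 12.4% of JunB-only sites. For all 3 groups together, FOSL2-only minus JunB-only was 1.90 points (0.450 to 3.41) and was positive on 15 of 20 chromosomes. Without the blocks it was 3.24 points (1.69 to 4.86) and positive on 16 of 20.

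Exact combinations of the 7 lists differed along the same factors. cJun with KLF4, KLF5, VDR and RXR, and neither ATF, was the combination of 90 shared sites, 1 FOSL2-only site and 681 JunB-only sites, 10.0% of the JunB-only class. cJun with KLF5, VDR and RXR alone was that of 63 shared, 2 FOSL2-only and 411 JunB-only sites. ATF2 with ATF7 and nothing else was that of 69 shared sites, 271 FOSL2-only sites and 45 JunB-only sites, 9.01% of the FOSL2-only class. All 7 lists met at 504 shared sites, 4 FOSL2-only sites and 104 JunB-only sites. The 6 lists other than cJun met, without cJun, at 143 shared, 94 FOSL2-only and 74 JunB-only sites.

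Sites with a single further list had different factors in the 3 classes. Of 310 shared sites of this kind, 34.5% had cJun and 29.7% had ATF2. Of 523 such FOSL2-only sites, 43.0% had ATF2, 22.8% KLF5, 22.4% ATF7 and 4.02% cJun. Of 1212 such JunB-only sites, 35.9% had cJun, 23.5% KLF5, 15.5% RXR, 10.1% VDR, 9.41% ATF2 and 3.14% ATF7. For scale, 12368 intervals listed for neither stood on a single list and were counted only through it. Of these, 33.2% had KLF5, 26.3% ATF2, 13.3% VDR, 11.3% RXR, 10.6% ATF7 and 2.97% cJun. The KLF5 shares of FOSL2-only and JunB-only sites lay below that level, and the cJun share of FOSL2-only sites lay near it. Without the blocks, 40.1% of 406 such FOSL2-only sites had ATF2, 28.6% KLF5 (24.2 to 33.2) and 16.7% ATF7, and 23.5% of 1208 such JunB-only sites had KLF5 (21.1 to 26.0).

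Shared sites were crowded and FOSL2-only sites were sparse. The number of the other 7 lists per site averaged 3.96 ± 2.19 at shared sites, 1.48 ± 1.72 at FOSL2-only sites and 2.48 ± 1.93 at JunB-only sites (SD over sites, which are not replicates). The median was 4 lists at shared, 1 at FOSL2-only and 2 at JunB-only sites. None of the other 7 lists held 7.66% of shared sites (6.77 to 8.62), 42.6% of FOSL2-only sites (40.9 to 44.4) and 20.5% of JunB-only sites (19.6 to 21.5). Over all intervals this share was 8.44%, which counts none of those listed for neither, by construction. At 5 or more lists stood 45.3% of shared sites (43.6 to 47.1), 8.38% of FOSL2-only sites (7.41 to 9.43) and 19.5% of JunB-only sites (18.6 to 20.5), against 10.6% of all intervals.

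**Figure D3:**
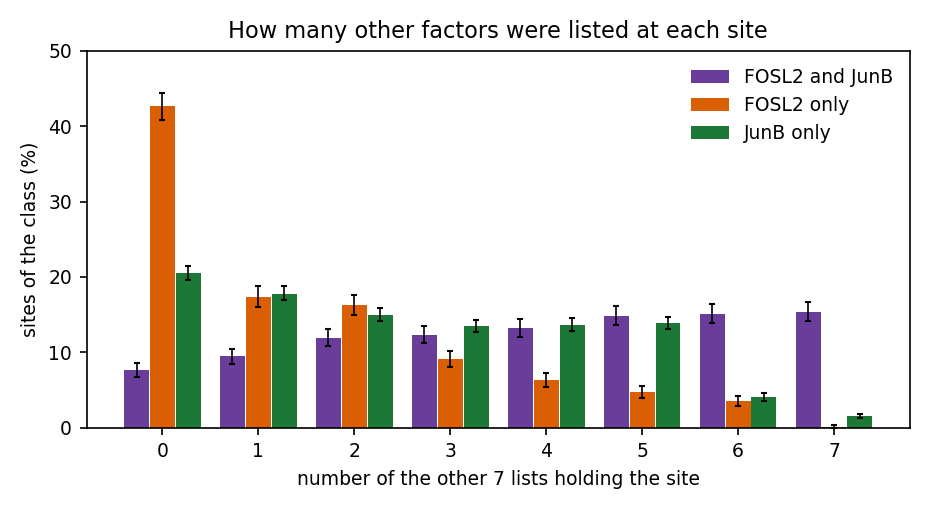
Percentage of each class (y axis) by the number of the other 7 lists that held the site (x axis), with exact 95% intervals. FOSL2-only sites peak at 0 lists with 42.6% and fall away to 0.133% at 7 lists, shared sites grow steadily to 15.4% at 7 lists, and JunB-only sites stay near 14% from 3 to 5 lists and drop to 4.07% at 6 lists.

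Because the classes differed in crowding, the shares were also averaged over sites with equal numbers of the remaining 6 lists. FOSL2-only minus JunB-only was then -38.9 points for cJun, 39.6 for ATF2, 29.6 for ATF7, -3.12 for KLF4, -8.78 for KLF5, -20.8 for VDR and -24.1 for RXR. Without the blocks the differences were -38.6 for cJun, 38.9 for ATF2, 27.4 for ATF7, -3.06 for KLF4, -5.47 for KLF5, -20.4 for VDR and -22.9 for RXR. The ATF differences were larger at equal crowding, and those of KLF4 and KLF5 were much smaller. For KLF4 the order turned at 1 remaining list, with 7.01% of FOSL2-only and 6.19% of JunB-only sites. It also turned at 5 remaining lists, with 65.6% and 59.6%. For KLF5 it turned only at 5, with 96.3% and 95.5%. For cJun the gap was found at every number of remaining lists, from 1.61% of FOSL2-only sites against 23.7% of JunB-only sites with none of them to 4.08% against 58.4% with all 6. For ATF2 the gap was smallest in points at the ends: with no remaining list, 14.9% of 1507 FOSL2-only sites and 7.54% of 1512 JunB-only sites were listed, and with all 6, 4 of 5 FOSL2-only sites and 66.7% of 156 JunB-only sites. In between, 57.2% of FOSL2-only and 12.2% of JunB-only sites with 1 remaining list were listed, and 94.6% of FOSL2-only and 23.4% of JunB-only sites with 5. Equal numbers did not mean the same lists. Of 111 FOSL2-only sites with 5 remaining lists, 94 had ATF2, ATF7, KLF4, KLF5, VDR and RXR without cJun. Of 961 such JunB-only sites, 681 had cJun, KLF4, KLF5, VDR and RXR and neither ATF. How much of the larger ATF differences came from this make-up was not tested.

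The difference at 5 or more lists, FOSL2-only minus JunB-only, was -11.1 points and depended on which lists were counted. It was 0.528 points (-0.601 to 1.72) with cJun left out of the count, and -1.20 with RXR, -1.82 with VDR, -2.00 with KLF5 or -2.47 with KLF4 left out. With ATF2 left out it was -12.6 points. Each of these counts was over 6 lists, so that 5 was nearer to the most a site could have. The share with no list still differed by 16.4 points (14.3 to 18.5) with cJun left out. FOSL2-only sites thus had the larger share of solitary sites with and without cJun in the count.

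Among shared sites, those with cJun were richer in all 6 remaining factors. The 1938 shared sites with cJun were listed for VDR in 64.8% of cases, against 39.7% of the 1339 shared sites without cJun, a difference of 25.2 points (21.7 to 28.5). For RXR the shares were 69.1% and 44.5%, for KLF4 48.8% and 28.1%, and for KLF5 76.9% and 57.2%. The ATFs differed least, with 70.8% and 57.4% for ATF2 and 55.1% and 39.6% for ATF7.

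The rows of the 9 lists followed 1 common order: any intervals that stood in 2 lists stood in the same order in both, in 36 of 36 pairs of lists. The order was not by position, and what it ranks is not stated in the labels or files. The lists did not fix every place in it, so each interval was set midway between its first and last possible place. These lay a median of 5 and at most 417 places apart. Its early part held intervals with many lists, with a mean of 4.69 lists per interval in the first decile and 1.20 in the last. The order is used below as a description and is not read as signal.

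Shared sites came early in the order. In the FOSL2 list, 62.1% of shared sites (60.4 to 63.8) and 36.8% of FOSL2-only sites (35.1 to 38.6) stood in the first 50% of rows. In the JunB list, 63.2% of shared sites (61.6 to 64.9) and 43.6% of JunB-only sites (42.4 to 44.8) did. In the common order of all intervals, from 0 for the first to 1 for the last, the median place was 0.269 for shared, 0.486 for FOSL2-only, 0.435 for JunB-only and 0.559 for intervals listed for neither.

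The 3 classes ran through the order in different ways. Shared sites numbered 802 in the first decile and 28 in the last. JunB-only sites numbered 875 in the first decile and 370 in the last. FOSL2-only sites stayed between 231 and 359 in every decile, with 320 in the first and 321 in the last. JunB was thus listed at 71.5% of the FOSL2 sites in the first decile (68.7 to 74.1) and at 8.02% of those in the last (5.40 to 11.4).

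The leaning of each factor was seen along the whole order, except for KLF4 and KLF5 in 1 decile each. cJun was listed at 1.25% to 5.22% of FOSL2-only sites and at 11.6% to 67.3% of JunB-only sites, depending on the decile, and was lower at FOSL2-only sites in 10 of 10 deciles. ATF2 and ATF7 were higher at FOSL2-only sites in 10 of 10 deciles. VDR and RXR were lower there in 10 of 10 deciles, and KLF4 and KLF5 in 9 of 10. KLF4 was higher at FOSL2-only sites in the last decile (1.56% against 0.811%), and KLF5 in decile 9 (19.3% against 17.6%). Sites with none of the other 7 lists made up a larger share of FOSL2-only than of JunB-only sites in 10 of 10 deciles.

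**Figure D4:**
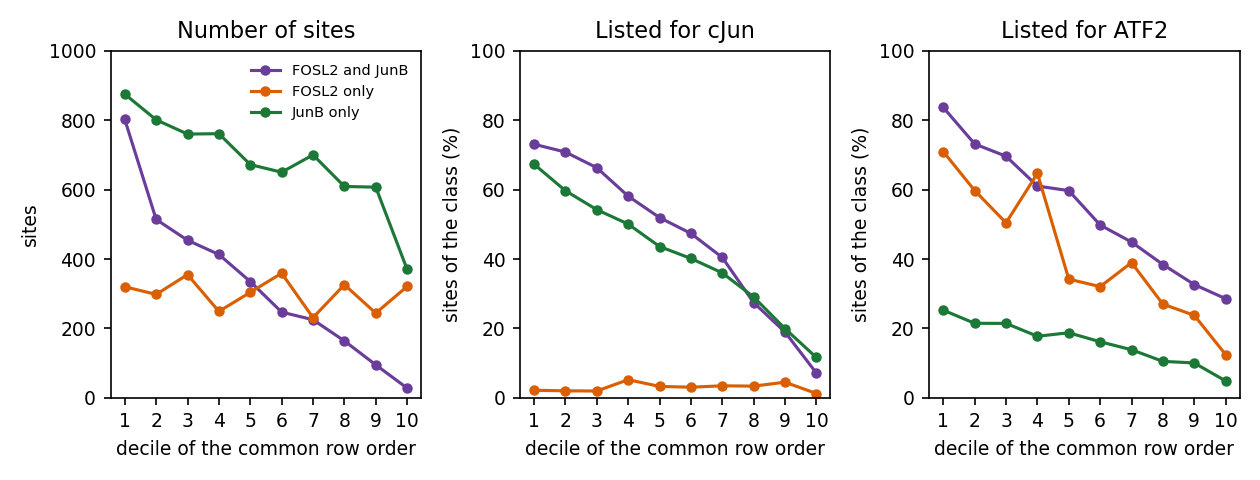
Number of sites (left), percentage listed for cJun (middle) and percentage listed for ATF2 (right) in each decile of the common row order (x axis, 1 is the start). Shared sites number 802 at the start and 28 at the end, while FOSL2-only sites stay between 231 and 359. For cJun the FOSL2-only line lies along the bottom and the other lines fall together; for ATF2 the FOSL2-only line lies above the JunB-only line in every decile.

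Solitary FOSL2-only sites were bunched in the row order. The 1282 FOSL2-only sites with none of the other 7 lists had a median of 7 and a maximum of 115 per hundredth of the order, and the 8 fullest hundredths held 524 of them (40.9%). The 1398 solitary JunB-only sites had a median of 10 and a maximum of 44, with 21.3% in their 8 fullest hundredths. FOSL2-only sites with further lists had a maximum of 37 per hundredth and 14.7% in their 8 fullest. Without the chromosome 10 blocks the 8 fullest hundredths held 38.7% of the solitary FOSL2-only sites. This bunching was noticed after the values had been seen. Whether setting sites midway between their possible places added to it was not tested.

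Neighbouring sites were taken within 10 kb, between midpoints. Of all intervals, 20.7% had another FOSL2 site in that range and 27.7% another JunB site. Of shared sites, 24.4% had another FOSL2 site there and 33.6% another JunB site. A JunB site lay within 10 kb of 26.2% of FOSL2-only sites (24.7 to 27.9), and a FOSL2 site within 10 kb of 15.5% of JunB-only sites (14.6 to 16.3). Without the blocks, 22.7% of FOSL2-only sites (21.1 to 24.3) and 26.9% of all intervals had a JunB site in that range. For a FOSL2 site the values without the blocks were 14.9% of JunB-only sites (14.0 to 15.7) and 18.6% of all intervals. FOSL2-only minus JunB-only was 10.8 points, and 7.78 points without the blocks, but the JunB list is the longer one and offers more neighbours.

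Sites of a class lay near others of their class, and for FOSL2-only sites this rested in part on the blocks. A neighbour of the same class was found for 16.7% of shared sites (15.4 to 18.0), 28.3% of FOSL2-only sites (26.7 to 29.9) and 21.5% of JunB-only sites (20.6 to 22.5). Of all intervals, 12.3% had a shared site within 10 kb, 11.0% a FOSL2-only site and 18.6% a JunB-only site. Without the blocks, 15.2% of shared, 19.3% of FOSL2-only and 21.4% of JunB-only sites had a same-class neighbour, and 11.6% of all intervals had a shared, 8.77% a FOSL2-only and 18.2% a JunB-only site in that range. FOSL2-only minus JunB-only was 6.74 points over all sites and turned to -2.06 points (-3.82 to -0.234) without the blocks. Measured against all intervals, FOSL2-only sites still had the largest excess of same-class neighbours of the 3 classes.

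The class of the nearest FOSL2 or JunB site told the same. Of 1317 FOSL2-only sites with such a site within 10 kb, the nearest was FOSL2-only for 56.6% (53.8 to 59.3), where FOSL2-only sites made up 23.0% of the 13089 sites. Without the blocks the share was 48.3% (45.1 to 51.5), against 21.0%. For JunB-only sites the nearest was JunB-only for 59.4% (57.3 to 61.4), against 52.0%, and for shared sites it was shared for 32.3% (29.7 to 34.9), against 25.0%.

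**Figure D5:**
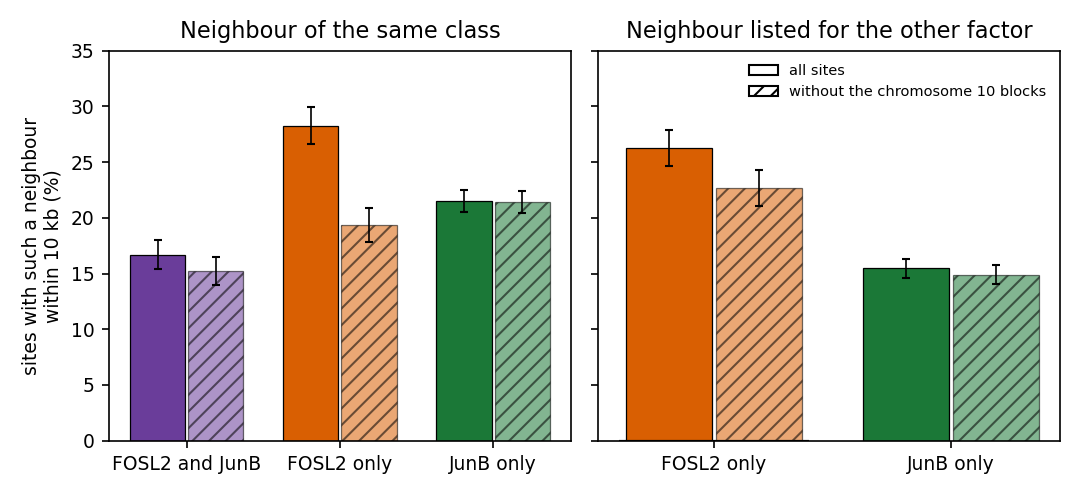
Share of sites (y axis, %) with another site of the same class (left) or a site listed for the other factor (right) within 10 kb, over all sites (plain bars) and without the chromosome 10 blocks (hatched bars), with exact 95% intervals. The FOSL2-only bar for same-class neighbours drops to 19.3% without the blocks, against 28.3% with them, while the JunB-only bar stays near 21%.

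Inside the blocks, FOSL2-only sites had few lists other than the ATFs. Of the 359, 50.4% were listed for ATF2, 47.6% for ATF7, 0.836% for cJun, 8.36% for KLF5 and 3.90% for RXR. The 50 JunB-only sites in the blocks were listed for cJun in 78.0% of cases, for ATF2 in 28.0% and for RXR in 72.0%. The 88 shared sites there had a mean of 5.02 other lists, against 1.26 at the FOSL2-only sites and 3.96 at the JunB-only sites.

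Runs were counted as successive sites of 1 class with gaps of at most 10 kb and no FOSL2 or JunB site of another class between them. Runs of 3 or more held 2.17% of shared sites, 16.4% of FOSL2-only sites and 3.75% of JunB-only sites. Without the blocks they held 1.66% of shared, 8.80% of FOSL2-only and 3.73% of JunB-only sites. The longest FOSL2-only run, at chr10:117709152-117761313 in the third block, had 18 sites over 52162 bp, of which 9 were on none of the other 7 lists, 7 were listed for ATF2 and 6 for ATF7.

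Outside the blocks, the longest runs of the shared and the FOSL2-only class were short stretches of solitary sites. The longest shared run, at chr19:44468919-44482205, had 9 sites within 13287 bp, and all 9 were on none of the other 7 lists. The longest FOSL2-only run outside the blocks, at chr18:78016145-78021312, had 8 sites within 5168 bp, all 8 also on none of the other lists. No input library or reads were used here, so whether these dense solitary stretches and the blocks reflect binding was not tested. The longest JunB-only runs had 5 sites, among them those at chr12:80447079-80457558 and, over a longer span, at chr15:3581475-3599121. In the run on chromosome 12 each site had at least 1 other list; 5 were listed for RXR, 4 for KLF5, 4 for VDR and 1 for cJun.

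The first 3 sites of each class in row order were also examined. The first shared sites were chr19:44471176-44471575 and chr19:44471552-44471951, which overlap, belong to the run of solitary shared sites and were on no other list. The third, chr2:77813626-77814025, was on all 7. The first FOSL2-only sites were chr10:117158496-117158895, listed for cJun, ATF2, ATF7 and KLF5, chr10:95540103-95540502, on no other list, and chr17:39982241-39982640, listed for ATF2 and ATF7. The first JunB-only sites, chr10:107052548-107052947, chr10:116738823-116739222 and chr10:107342580-107342979, lay in the blocks and were each listed for cJun, KLF4, KLF5, VDR and RXR, the last also for ATF2. Outside the blocks the first JunB-only sites were chr11:3045520-3045919, listed for KLF4, KLF5, VDR and RXR, chr19:55214109-55214508, listed for these and cJun, and chr4:58343738-58344137, on all 7 lists. No gene is named at these positions, since no mm9 annotation was used here.

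The shares of each list that were shared varied by chromosome. Between 31.4% (chromosome 10) and 68.8% (chromosome 12) of FOSL2 sites were also listed for JunB, with a median of 53.3%. Without chromosomes 10 and X the lowest value was 46.9%. Between 9.09% (chromosome X) and 43.6% (chromosome 19) of JunB sites were also listed for FOSL2, with a median of 31.9%. Chromosome X held 16 shared, 32 FOSL2-only and 160 JunB-only sites. Chromosome 10 was the only chromosome of the 20 with more FOSL2-only than JunB-only sites, 463 against 406. Of these, 359 FOSL2-only and 50 JunB-only sites lay in the 3 blocks, as did 88 of its 212 shared sites. Outside the blocks, chromosome 10 also had more JunB-only than FOSL2-only sites. The values by chromosome in this paragraph include the blocks.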

How the data were processed

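The deposited files list, for each of 9 factors with 1 ChIP-seq library each, chromosome, start and end positions of intervals, with no other value. The authors used FastQC, Bowtie, HOMER and the build mm9, per the submitters' processing notes. Their roles, versions, the peak threshold and how the common 400 bp intervals were made were not given in the sources used here. Depth is unknown, and 1 library per factor limits precision.

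Chromosomes 1 to 19 and X were used, leaving out 2 intervals. Sites were matched by identical coordinates, given 1-based. Exact Clopper-Pearson and Newcombe intervals at 95% were computed in Python 3.11.15 with numpy 2.4.6, scipy 1.17.1 and pandas 2.3.3. Of these, only the Newcombe intervals were tested on simulated data. Equal crowding means that shares were averaged within numbers of the remaining 6 lists and weighted by the sites of both classes together. It makes equal how many lists held a site and not which lists these were. No test was made, since sites of 1 library are not replicates.

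Sites named by position are, per class, the first 3 in row order and the longest run, with and without the chromosome 10 blocks. The classes, lists and blocks were chosen with earlier results of these data known. Alternatives covered the blocks, chromosomes, matching, list length, crowding, row order and neighbour distance. The other 21 samples were not analysed here.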

Additional observations from a re-analysis of the deposited data

How the results depend on the processing

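Of 158 alternative values for 16 results under 24 settings, 92 stayed within the 95% counting interval of the reported value (for numbers of sites, within 1.5 times), 61 moved further with the same sign and 5 reversed. Differences below are FOSL2-only minus JunB-only, in percentage points. All differences in listing for the 7 factors kept their sign under every alternative run.

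The reversals concerned same-class neighbours and crowding. The same-class neighbour difference of 6.74 was -2.06 without the blocks, -2.49 without chromosome 10, which was also the lowest value with each chromosome left out, and -8.25 within 50 kb. The difference at 5 or more lists, -11.1, was 0.528 with cJun left out of the count, where the interval included 0, and -12.6, -2.47, -2.00, -1.82 and -1.20 with ATF2, KLF4, KLF5, VDR or RXR left out; fewer lists counted make 5 harder to reach. The difference with no other list, 22.1, was 16.4 without cJun, 27.9 without ATF2, 25.4 without ATF7 and 20.0 without RXR.

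Without the blocks, ATF7 was 16.2, KLF5 -20.5, RXR -32.2 and neighbours of the other factor 7.78. Without chromosome 10 they were 16.1 for ATF7, -20.6 for KLF5 and 7.50 for neighbours of the other factor, the extremes over the chromosomes left out. Within 2 kb that neighbour difference was 4.07, and within 50 kb 19.4. With the first 50% of rows of every list, 2035 shared, 1107 FOSL2-only and 3006 JunB-only sites were left, and the differences were -48.2 for cJun, 37.7 for ATF2, 33.7 for ATF7, -17.3 for KLF4, -32.7 for KLF5, -34.6 for VDR, -39.3 for RXR, 14.6 with no other list and -15.6 at 5 or more. With the JunB list shortened to the FOSL2 length, 2484 shared and 3800 JunB-only sites were left. The 3007 FOSL2-only sites stayed those of the full JunB list, so only the JunB-only side of each difference changed. The cut removed late JunB rows. JunB-only sites averaged 4.63 other lists in the first decile of the common order and 0.403 in the last. The values were -52.8 for cJun, 20.0 for ATF2, 14.9 for ATF7, -27.8 for KLF4, -43.4 for KLF5, -52.8 for VDR, -56.3 for RXR, 34.8 with no other list and -25.0 at 5 or more. With at least 1 of the other lists required, cJun was -50.5, ATF2 50.4, ATF7 37.9, KLF4 -9.96 and KLF5 -15.1. At equal crowding the values were -38.9 for cJun, 39.6 for ATF2, 29.6 for ATF7, -3.12 for KLF4, -8.78 for KLF5, -20.8 for VDR and -24.1 for RXR. The cause of these shifts was not tested.

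The share in the first 50% of rows, shared minus FOSL2-only, was 25.3 points in the FOSL2 list, 15.6 in the ATF2 list, 17.9 in the KLF5 list and 11.6 in the RXR list. Shared minus JunB-only was 19.6 points in the JunB list, 15.7 in the ATF2 list, 11.4 in the KLF5 list and 14.9 in the RXR list. No paired analysis was possible because each factor had 1 library, and the replicate numbers in the labels belong to samples not analysed here.

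With no score and no depth, a longer list cannot be told apart from a deeper library or a more efficient antibody. Sites of 1 library share their source, so intervals understate the error.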
